A study of Mus musculus with 8 samples.

Results

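Neurotrophins and the GDNF family are secreted proteins that keep neurons alive, and 9 genes encoding such ligands and their receptors were examined in cultured mouse myotubes: Bdnf, Ntf3 and Gdnf among the ligands, and Ngfr, Sort1, Ntrk2, Ntrk3, Gfra1 and Ret among the receptors. All probe sets annotated to these genes were taken, which gave 30 of the 45137 probe sets that were not controls (18 on array type A and 12 on array type B) and covered 8 of the 9 genes. Ntf3 had no probe set under its name in the annotation used and was not analysed here. The genes were chosen for the role of Egr3 in the innervation of muscle spindles and not by a rule on their values. Earlier results of these data were known when they were chosen. The study measured total RNA of primary myotubes, the multinucleated cells formed by fusion of muscle precursors, as 4 RNAs, each hybridised to 1 array of each type. The labels describe 1 RNA as truncated Egr3 and 1 as wildtype, both under a growth treatment. RNA275 is given only an acclimatization treatment and RNA276 no treatment, so neither has a group and both are described by their signals. The labels state neither how the truncated Egr3 was introduced, nor whether the wildtype cells carried an added Egr3, nor how many cultures went into an RNA.

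In muscle, the sensory endings of the spindle depend on factors made by the intrafusal fibres, of which neurotrophin-3 acting on the Ntrk3 product TrkC is the best known. Mature neurotrophins signal through Trk tyrosine kinases, while the p75 receptor encoded by Ngfr binds all neurotrophins and, together with sortilin, their uncleaved precursors. GDNF binds GFRalpha1, which has no intracellular part and signals through the kinase Ret. Egr3, a zinc-finger transcription factor, is required for spindles to form, and Ngfr has been reported as an Egr target gene. The comparison made here, truncated Egr3 against wildtype, addresses which of these genes differ with the form of Egr3 named in the labels.

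Each label has a single RNA, so differences have no replicate check, no test or p-value is given, and they describe these RNAs only. The 2 arrays of an RNA carry different probe sets and are not replicates. The deposited signals are linear intensities whose 2% trimmed mean was 150.0 on all 8 arrays. Signals below a floor, the 50th percentile of the truncated-Egr3 and wildtype arrays on type A (67.6) and the 60th on type B (112.4), were set to the floor for differences, and a probe set was called measured when at least 1 of the 2 arrays exceeded it. A difference with 1 array at the floor is a bound. From the 100 probe sets that types A and B share, the technical SD of a single log2 difference was 0.179. That SD leaves out a mean offset between the array types. On those probe sets the truncated-Egr3 minus wildtype difference on type A, less that on type B, had a mean of -0.139. Those probe sets are also bright. The 2 brightest probe sets of a gene, where both were above the floor, differed (3949 pairs) with an SD of 0.366. Probe sets bind with different efficiency, so signals are compared between RNAs and never between probe sets. All 12 myotube markers, Myog, Ckm and Myh3 among them, were above the floor in all 4 RNAs, with signals from 354 to 4641. Of these 12, 10 were lower in truncated Egr3 than in wildtype (median log2 difference -0.19). Of 9 neuronal markers, 7 were below the floor in all 4 RNAs. Egr3 itself read 830 in truncated Egr3 and 769 in wildtype on type A (RNA275 1454, RNA276 2627), and 1039 in truncated Egr3 and 1420 in wildtype on type B (RNA275 1203, RNA276 771). The probe sets thus disagree on the order of the RNAs, and which part of the Egr3 transcript each reads was not analysed here.

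Among the neurotrophic genes, the receptors Gfra1 and Ngfr had lower signal in truncated Egr3 than in wildtype, and the other members differed by less. Of the 30 probe sets, 10 were measured in this comparison (for 6 of the 8 genes), 15 were above the floor in at least 1 of the 4 RNAs and only 3 in all 4. Of the 10 measured, 1 (Gfra1) was at least 2-fold lower in truncated Egr3 and 0 were at least 2-fold higher, where 0.937% and 0.695% of all 21877 measured probe sets were. The count rests on that single Gfra1 probe set, which lies just past 2-fold and fell short of it when the arrays were given equal medians. The median log2 difference of the 10 was -0.17, against -0.01 for all measured probe sets. For the 12 myotube markers, with 1 probe set each, the median was -0.19, so a shift of this size was not particular to the members. Of the 10, 9 were below 0, against 50.9% of all measured probe sets. The 10 are not independent readings, since the 3 of Sort1 share 1 design sequence, as do the 2 of Bdnf. Only 4 of the 10 were above the floor in both RNAs, so 6 of the differences are bounds. The sign of a bound is fixed by which of the 2 RNAs exceeded the floor. That RNA was wildtype for each bound except that of Bdnf 1422169_a_at. The count of signs and the median therefore give no direction for the members as a set.

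**Figure D1:**
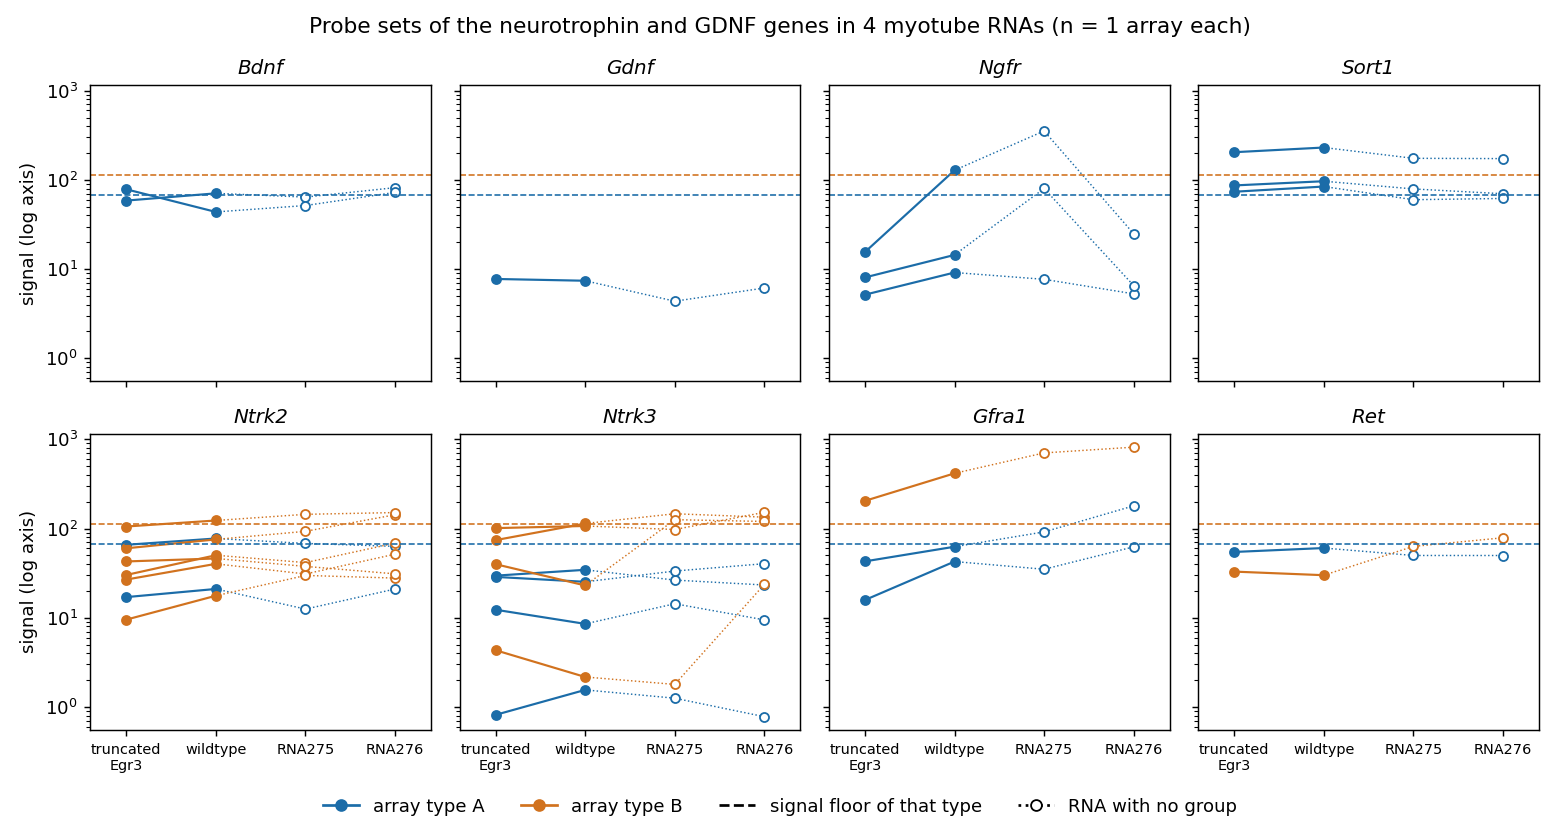
Signal (log axis) of each probe set of the 8 genes in the truncated-Egr3 and wildtype RNAs (filled) and in the 2 RNAs with no group (open), 1 array per point. Lines join the points of 1 probe set (dotted towards the RNAs with no group, whose order on the axis has no meaning), and dashed lines are the floors (67.6 for type A, 112.4 for type B). With values below a floor set to it, 1 Ngfr and 2 Gfra1 probe sets span at least 2-fold over the RNAs and no other member does, while Gdnf and Ret stay below their floors.

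The promoters of Ngfr and Gfra1 are shown because these genes had the largest differences among the members. RefSeq sequence (GRCm38.p6, from 250 bases before to 50 after the annotated start, read 5′ to 3′ on the gene's strand) was at hand for 14 starts of 6 members, and Ntrk3, Sort1 and Ret were not matched. Ngfr lies on the minus strand at chr11:95587649-95587948 and Gfra1 on the minus strand at chr19:58455349-58455648. The Gfra1 window lies wholly inside the annotated gene, whose 5′ end is at 58455946, so sequence before that end was not searched. Capitals mark GGGCGG, the GC box, on either strand, a motif chosen after the sequences had been seen.
Ngfr: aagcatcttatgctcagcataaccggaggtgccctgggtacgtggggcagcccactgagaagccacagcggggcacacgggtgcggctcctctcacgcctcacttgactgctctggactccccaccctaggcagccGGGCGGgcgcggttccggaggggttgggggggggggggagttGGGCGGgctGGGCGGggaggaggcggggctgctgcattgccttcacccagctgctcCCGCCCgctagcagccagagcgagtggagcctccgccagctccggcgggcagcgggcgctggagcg
Gfra1: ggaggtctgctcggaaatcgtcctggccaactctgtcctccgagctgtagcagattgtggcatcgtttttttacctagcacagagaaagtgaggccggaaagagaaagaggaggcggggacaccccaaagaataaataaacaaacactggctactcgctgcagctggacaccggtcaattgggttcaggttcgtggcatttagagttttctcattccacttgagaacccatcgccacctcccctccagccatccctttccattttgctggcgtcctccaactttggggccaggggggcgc
The letters GCGNGGGCG of the Egr site, searched on both strands, occurred in none of the 14 windows, and 5.55% of 32851 promoters held them. The Ngfr window held GGGCGG 4 times, beginning 114, 72, 63 and 16 bases before the start, the last on the opposite strand. The Gfra1 window held none, and 35.7% of all promoters held at least 1. The capitals do not overlap each other. G and C made up 71.7% of the Ngfr window and 54.0% of the Gfra1 window. These matches describe letters only and say nothing of binding in these cells.

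The ligands were dim. Bdnf encodes the brain-derived neurotrophic factor, the ligand of TrkB, which muscle also makes. Its probe set 1422168_a_at read 58.6 in truncated Egr3 and 70.6 in wildtype, with 64.1 in RNA275 and 81.8 in RNA276. Its other probe set, 1422169_a_at, read 78.4 in truncated Egr3 and 43.7 in wildtype, with 51.6 in RNA275 and 72.3 in RNA276. Both were designed on the same database sequence, yet their bounded log2 differences had opposite signs, -0.06 and 0.21, so no direction can be given for Bdnf. All 8 values lay near the floor of 67.6 or below it. Gdnf encodes the glial cell line-derived factor that muscle provides to motor neurons. It read 7.75 in truncated Egr3 and 7.40 in wildtype, 4.37 in RNA275 and 6.14 in RNA276, all far below the floor.

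Ngfr encodes the p75 receptor, found on Schwann cells and sensory neurons and also on muscle precursors. The probe set 1454903_at read 15.5 in truncated Egr3 and 128 in wildtype. In the RNAs with no group it read 353 in RNA275 and 24.9 in RNA276. Truncated Egr3 and RNA276 were thus below the floor of 67.6 and wildtype and RNA275 above it. The difference between truncated Egr3 and wildtype was a log2 bound of -0.92, which is at least 1.89-fold lower in truncated Egr3. The size of this bound is set by the floor: the log2 difference was -1.54 with the lower floor, which is past 2-fold, and -0.33 with the higher floor. A second probe set, 1450177_at, read 8.06 in truncated Egr3, 14.4 in wildtype, 80.0 in RNA275 and 6.53 in RNA276. It was above the floor only in RNA275, the RNA in which the first probe set was also highest. The remaining one, 1421241_at, read 5.16 in truncated Egr3 and 9.15 in wildtype, 7.68 in RNA275 and 5.28 in RNA276, and was above the floor in none. It shares its design sequence with the second, so the 3 probe sets are not independent readings. In all 3, truncated Egr3 and RNA276 were below wildtype and RNA275, an arrangement found in 18.8% of all type A probe sets.

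Markers of Schwann cells and glia, another possible source of Ngfr RNA in a muscle culture, moved with these values in their sum but not each of them. Their summed signal over 8 genes was 1092 in truncated Egr3 and 1428 in wildtype, 2141 in RNA275 and 1246 in RNA276. Such sums are weighted to the brightest probe sets, here Pmp22 (824 in RNA275) and Erbb3 (740 in RNA275), and do not measure the share of a cell type. Of the 8, 4 were above the floor in all 4 RNAs (Sox10, Erbb3, Pmp22 and Cnp) and 4 (S100b, Gfap, Cdh19 and Mbp) were below it in all 4. Sox10, the defining transcription factor of the lineage, read 85.6 in truncated Egr3 and 87.0 in wildtype, 118 in RNA275 and 85.2 in RNA276. Erbb3 and Cnp were lower in truncated Egr3 and RNA276 than in wildtype and RNA275, as Ngfr was. Sox10 shared this arrangement, but its values in truncated Egr3, RNA276 and wildtype lay close together. Pmp22 did not share it. It read 320 in truncated Egr3 and 433 in wildtype, 824 in RNA275 and 490 in RNA276, which puts RNA276 above wildtype. Markers of other cells differed too. The 7 smooth muscle and pericyte markers summed to 4497 in truncated Egr3 and 6179 in wildtype, 5226 in RNA275 and 5190 in RNA276, and the 5 measured were all lower in truncated Egr3 (median log2 difference -0.46). Among them Mcam read 45.5 in truncated Egr3 and 119 in wildtype, 155 in RNA275 and 46.3 in RNA276, the arrangement of Ngfr. Tagln and Pdgfrb shared that arrangement, but Cspg4 and Acta2 did not. Cspg4 read 132 in truncated Egr3 and only 120 in RNA275, and Acta2 was highest in RNA276, at 3576. The 7 fibroblast markers summed to 7622 in truncated Egr3 and 8055 in wildtype, 7016 in RNA275 and 8324 in RNA276. Of the 4 measured, 3 were higher in truncated Egr3 (median log2 difference 0.44), and Dcn was 2.02-fold higher. Col1a1, the bright one that was lower, read 3417 in truncated Egr3 and 4295 in wildtype. The 8 satellite cell and myoblast markers summed to 2594 in truncated Egr3 and 2842 in wildtype, 2224 in RNA275 and 3071 in RNA276, which is not the arrangement of Ngfr. The part of any of these cells in the Ngfr signal was not tested. In bulk RNA, fewer cells of a type and less RNA per cell cannot be told apart.

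Sort1 encodes sortilin, a sorting receptor that joins p75 in binding precursor neurotrophins. It was the member with all of its probe sets above the floor in both labelled RNAs. Its probe set 1423362_at read 204 in truncated Egr3 and 230 in wildtype, 174 in RNA275 and 173 in RNA276, a log2 difference of -0.17 between the labelled RNAs. The probe set 1423363_at read 86.6 in truncated Egr3 and 96.6 in wildtype, 79.1 in RNA275 and 69.9 in RNA276, a log2 difference of -0.16. The probe set 1450955_s_at read 73.6 in truncated Egr3 and 84.2 in wildtype, 59.9 in RNA275 and 61.9 in RNA276, a log2 difference of -0.19. All 3 gave the same direction, but they share 1 design sequence, and the differences are near the technical SD of 0.179 in size. They are also near the mean offset of -0.139 of type A against type B. In all 3 both RNAs with no group lay below both labelled RNAs, as in 25.5% of all type A probe sets.

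Ntrk2 encodes TrkB, the kinase receptor of Bdnf, which is also made in forms without the kinase. It had 8 probe sets, 2 of them measured. On type A, 1420838_at read 65.9 in truncated Egr3 and 77.5 in wildtype, 68.2 in RNA275 and 63.3 in RNA276, a log2 bound of -0.20. On type B, 1446712_at read 106 in truncated Egr3 and 123 in wildtype, 145 in RNA275 and 151 in RNA276, a log2 bound of -0.13. Both lie close to their floors. The type B probe set 1435196_at read 60.2 in truncated Egr3 and 75.7 in wildtype, 93.3 in RNA275 and 143 in RNA276, and was above the floor only in RNA276. The other 5 were below the floor in every RNA, at 9.55 to 68.8. In signals without a floor all 8 Ntrk2 probe sets were lower in truncated Egr3, by log2 differences between -0.89 and -0.11. With equal medians 7 of 8 still were, against 46.3% of all probe sets. The 2 on type A share 1 design sequence, so the 8 are not independent readings. Of all probe sets below the floor in both labelled RNAs, 61.3% were lower in truncated Egr3.

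Ntrk3 encodes TrkC, the receptor of neurotrophin-3 on the sensory neurons of spindles. It too had 8 probe sets, and 1 was measured. On type B, 1433825_at read 74.3 in truncated Egr3 and 114 in wildtype, 147 in RNA275 and 134 in RNA276. Wildtype was barely above the floor, so the log2 bound was only -0.02. Another, 1455917_at, read 39.9 in truncated Egr3 and 23.1 in wildtype, below the floor, but 126 in RNA275 and 120 in RNA276, above it. Another type B probe set, 1443970_at, read 101 in truncated Egr3 and 107 in wildtype, 97.7 in RNA275 and 152 in RNA276. For 1433825_at truncated Egr3 was the lower and for 1455917_at the higher of the labelled RNAs, and in both the RNAs with no group lay above them. The other 5 stayed between 0.780 and 40.5 in every RNA. Without a floor, 4 Ntrk3 probe sets were lower and 4 higher in truncated Egr3.

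Gfra1 encodes GFRalpha1, the membrane-anchored receptor that binds GDNF. Its type B probe set, 1439015_at, read 205 in truncated Egr3 and 416 in wildtype, 706 in RNA275 and 819 in RNA276. All 4 values were above the floor, with truncated Egr3 the lowest and both RNAs with no group above both labelled RNAs. The log2 difference of -1.02 between truncated Egr3 and wildtype made Gfra1 2.03-fold lower in truncated Egr3. This was above both the technical SD of 0.179 and the SD of 0.366 between probe sets of a gene. Both SDs come from within the labelled RNAs, so neither measures the spread between cultures. For 1439015_at the setting mattered too. With equal medians its difference was -0.87, under 2-fold, and over all scalings and floors tried it ranged from -1.05 to -0.87. On type A, 1450440_at read 42.9 in truncated Egr3 and 62.7 in wildtype, below the floor, but 91.9 in RNA275 and 180 in RNA276. It put the 4 RNAs in the same order as the type B probe set. The remaining one, 1421973_at, read 15.8 in truncated Egr3 and 42.8 in wildtype, 35.0 in RNA275 and 62.5 in RNA276, below the floor throughout. All 3 were lowest in truncated Egr3 and highest in RNA276, though the pair on type A shares 1 design sequence. RNA276 was the highest of the 4 RNAs for 31.2% of all probe sets.

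Ret encodes the kinase through which GFRalpha1 signals. Its type A probe set 1421359_at read 54.8 in truncated Egr3 and 60.6 in wildtype, and 50 in both RNA275 and RNA276. On type B, 1436359_at read 33.0 in truncated Egr3 and 30.1 in wildtype, 63.2 in RNA275 and 79.0 in RNA276. All 8 values were below the floors, so Ret gave no measured difference.

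**Figure D2:**
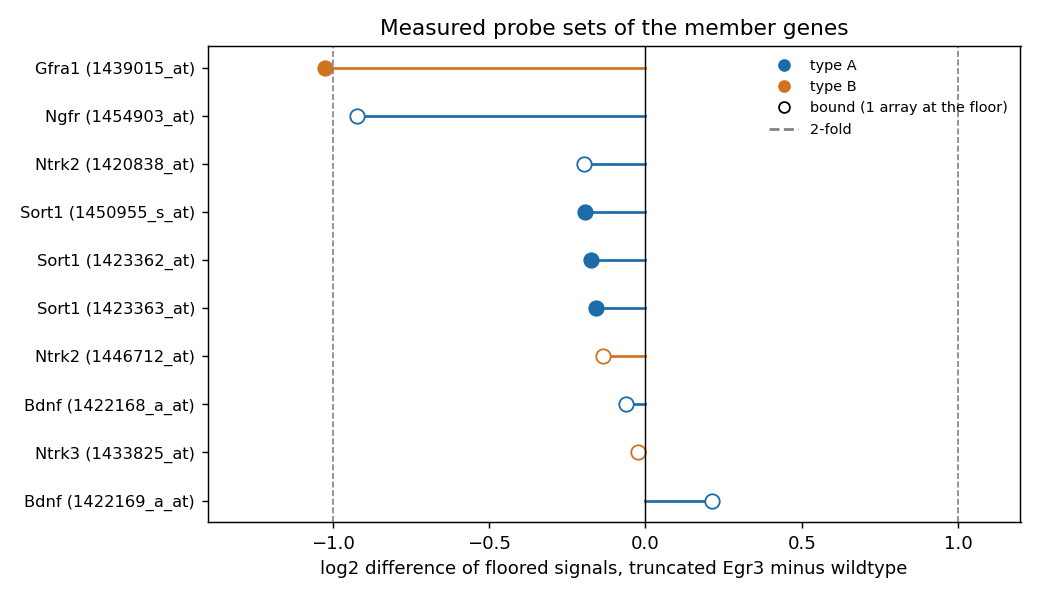
Log2 difference of floored signals, truncated Egr3 minus wildtype, for the 10 measured probe sets, with open points for bounds (1 array at the floor) and dashed lines at 2-fold. Gfra1 at -1.02 is the 1 probe set past 2-fold, Ngfr follows at a bound of -0.92, and the other 8 lie between -0.20 and 0.21.

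Over all 30 probe sets without a floor, 23 were lower and 7 higher in truncated Egr3. Among all probe sets 56.3% were lower. Of the 30, 20 were below the floor in both labelled RNAs, and 61.3% of all such probe sets were lower. Several of the 30 also share a design sequence, so these counts give no direction for the members as a set. With equal medians 21 of the 30 were lower, against 46.3% of all. Both RNAs with no group lay above both labelled RNAs for 9 of the 30, against 19.2% of all probe sets. The 9 were 2 of Gfra1, 3 of Ntrk2, 3 of Ntrk3 and 1 of Ret.

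Other genes of these pathways were described by 1 probe set each, the brightest, taken from type A where the gene is present there. The lists hold 82 genes that are not members, of which 69 had a probe set and 50 were measured. Of the 50, 1 was at least 2-fold lower in truncated Egr3 and 0 were at least 2-fold higher. Among all 10307 measured genes, 1.13% were at least 2-fold lower and 0.534% at least 2-fold higher. The 50 had a median log2 difference of 0.04, and 24 were below 0, against a median of 0.00 for all measured genes.

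The gene past 2-fold was Lingo1, a transmembrane partner of p75 in the Nogo receptor complex of neurons. Its type A probe set 1428118_at read 101 in truncated Egr3 and 420 in wildtype, 473 in RNA275 and 56.0 in RNA276. The log2 difference of -2.06 made it 4.16-fold lower in truncated Egr3. Its type B probe set 1437386_at read 213 in truncated Egr3 and 409 in wildtype, 641 in RNA275 and 202 in RNA276, a log2 difference of -0.94. Both probe sets were low in truncated Egr3 and RNA276 and high in wildtype and RNA275, the arrangement also seen for Ngfr.

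**Figure D3:**
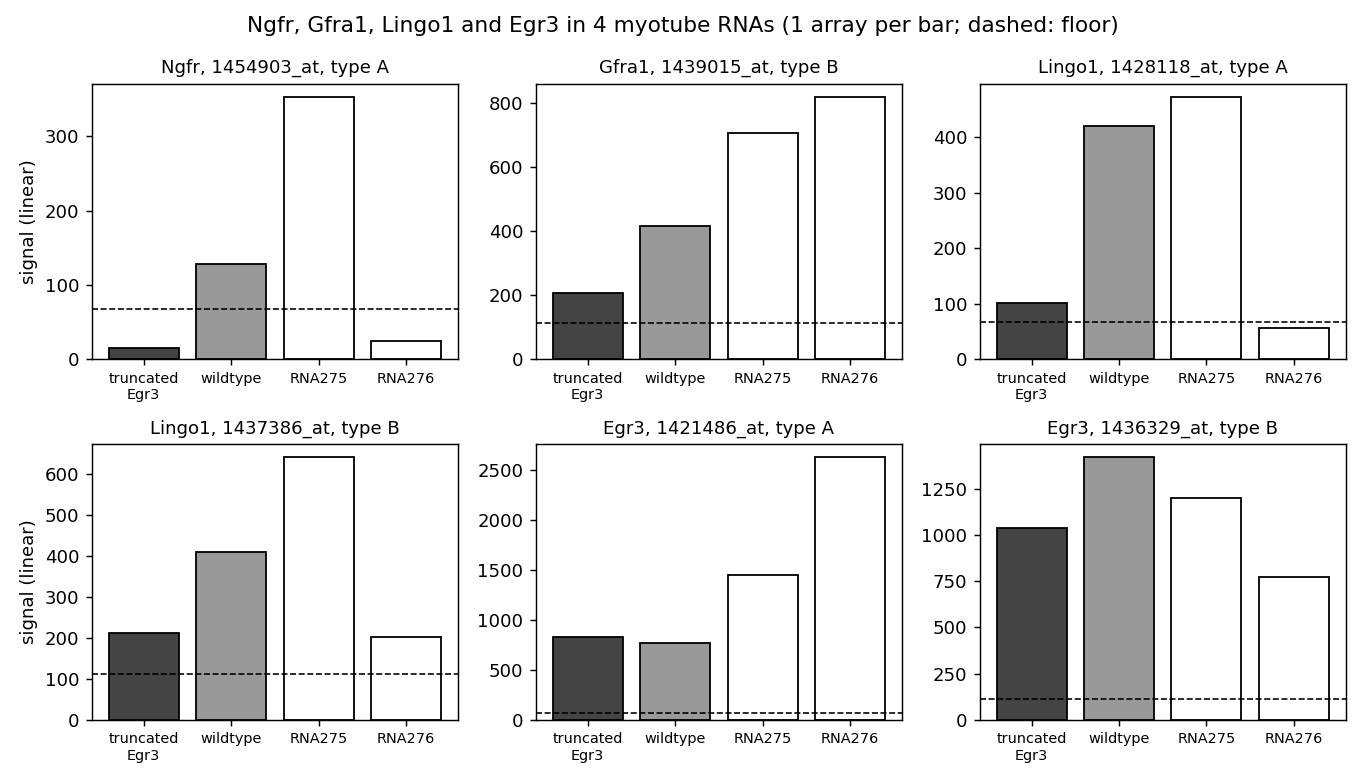
Linear signals of Ngfr, Gfra1, Lingo1 (both probe sets) and Egr3 (both probe sets) in the truncated-Egr3 RNA (dark), the wildtype RNA (grey) and the 2 RNAs with no group (white), 1 array per bar, with the floor dashed. Ngfr and Lingo1 are low in truncated Egr3 and RNA276, Gfra1 is lowest in truncated Egr3 and highest in RNA276, and the Egr3 probe sets order the RNAs differently.

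Of the other ligands, 2 genes of the list of 8 were measured, Bdnf and Nrtn, and none was 2-fold apart (median log2 difference -0.22). Nrtn, encoding neurturin, read 73.4 in truncated Egr3 and 95.7 in wildtype, 157 in RNA275 and 56.0 in RNA276, a log2 difference of -0.38. Of 20 receptors and co-receptors listed, 13 were measured, with 1 at least 2-fold lower and none higher (median -0.12). Gfra1 was not among the 13, because its type A probe sets were below the floor. Gas1, a GFRalpha-like membrane protein that can bind Ret, had log2 differences of -0.44 and -0.40 by its 2 measured probe sets. Nradd, a p75-like membrane protein, read 877 in truncated Egr3 and 665 in wildtype, a log2 difference of 0.40.

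None of the 11 measured p75 adaptors and effectors was 2-fold apart (median 0.05, with 5 below 0). The largest differences were those of Zfp110, a zinc-finger protein that binds p75, at -0.45, Irak1, a kinase of p75 and interleukin-1 signalling, at 0.39, and Traf4, an adaptor, at -0.13, though its other probe set gave 0.15. Of 18 measured adaptors and effectors of Trk and Ret none was 2-fold apart either (median 0.06, with 8 below 0). Kidins220, a scaffold that binds Trk receptors and p75, read 1319 in truncated Egr3 and 740 in wildtype, 717 in RNA275 and 592 in RNA276. Its log2 difference was 0.83, and its 3 other probe sets gave 0.55, 0.43 and 0.12, all higher in truncated Egr3. Grb10, an adaptor of receptor kinases, had a log2 difference of 0.64, and 0.51 by its other measured probe set. Gab2, a docking protein, had a bound of -0.64 by its type A probe set but differences of 0.35 and 0.17 by those of type B.

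The proteases that cleave neurotrophin precursors or their receptors had a median log2 difference of 0.00 over 10 measured genes, with none 2-fold apart. Plat, the tissue plasminogen activator that starts precursor cleavage through plasmin, read 316 in truncated Egr3 and 487 in wildtype, 470 in RNA275 and 536 in RNA276, a log2 difference of -0.62. Psen2, of the gamma-secretase that cuts p75 in the membrane, had a difference of 0.33. Adam10, a shedding protease, had a difference of -0.27 by 1 probe set but was higher in truncated Egr3 by the others, at 0.22, 0.40 and a bound of 0.42. Of the Egr factors and their NAB corepressors, 5 of 6 were measured and none was 2-fold apart (median -0.07), with Nab2 at -0.48 and Egr2 at a bound of -0.39.

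**Figure D4:**
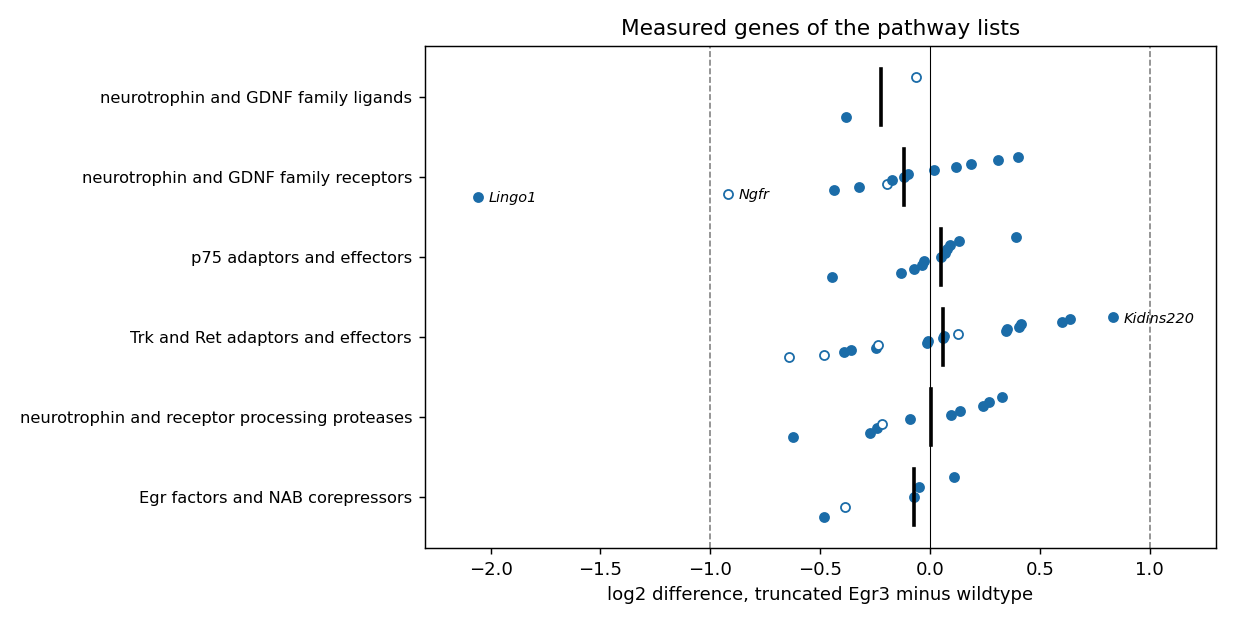
Log2 difference, truncated Egr3 minus wildtype, of each measured gene of 6 pathway lists (1 point a gene, open where 1 array was at the floor), with bars at the list medians and dashed lines at 2-fold. Lingo1 at -2.06 is the 1 point past 2-fold, Ngfr is a bound at -0.92 and Kidins220 is highest at 0.83.

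Signals that followed a member across the 4 RNAs were sought by the root mean square distance between centred, floored log2 profiles, among 12392 genes of type A and 9606 of type B. It was applied to the 3 member probe sets that spanned at least 2-fold over the RNAs. The 3 genes closest to Ngfr were Prss22, Fbxo2 and Arc, an activity-induced gene of neurons, at distances of 0.05, 0.07 and 0.07 in log2. Arc read 20.7 in truncated Egr3 and 139 in wildtype, 335 in RNA275 and 38.4 in RNA276. Closest to Gfra1 on type B were Fzd10, Spaca3 and Ndnf at 0.11, 0.14 and 0.16, and on type A Ifi27l2a, Slbp and Dync1i1 at 0.09, 0.09 and 0.10. With 4 points many genes lie close by: 21 genes were within 0.25 of Ngfr, 8 of the type B probe set of Gfra1 and 109 of its type A probe set. The Ngfr probe set and the type A probe set of Gfra1 were above the floor in only 2 of the 4 RNAs. Values below the floor were set equal, so Ifi27l2a at 5.74 and Gfra1 at 42.9 in truncated Egr3 counted as alike. The arrays are shared between all genes, so these distances are descriptions.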

How the data were processed

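Total RNA of mouse myotubes was measured as 4 RNAs on 2 array types, 8 arrays in all. The authors deposited linear intensity values, 1 for each probe set, which already had a common trimmed mean. Scanner software and normalization: not given in the sources used here. That scale was kept, which assumes like total signal in the RNAs. Gene names came from the platform table, with symbols updated from RefSeq (GRCm38.p6) through the gene numbers: 20393 probe sets on type A and 14674 on type B had 1 symbol, and 691 and 245 had several and were not named.

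Signals were floored, turned to log2 and subtracted, truncated Egr3 minus wildtype. Calls were differences of at least 2-fold. The members and gene lists were chosen with earlier results of these data known. Genes were named by rule: every member probe set, the other list genes past 2-fold or else the 3 largest, and the 3 nearest profiles; the markers and Egr3 values given beside a result were picked after they were seen, as were the GC box letters. Alternatives were quantile normalization, equal medians, loess (span 0.3), lower (40th and 50th percentiles) and higher (60th and 70th) floors, no floor (minimum signal of 1), 1.5-fold and 3-fold thresholds, and a gene value taken as the median of its probe sets. The calling step was tested on simulated data. The number of arrays limits the precision. Loess came from statsmodels 0.14.6 and ranks from scipy 1.17.1. Tables were handled in pandas 2.3.3 and numpy 2.4.6 under Python 3.11.15, and plots drawn with matplotlib 3.10.9.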

Additional observations from a re-analysis of the deposited data

Results flagged for a closer look

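RNA275 and RNA276 belong to no group, and 2 member probe sets read at least 2-fold above both labelled RNAs and the floor there. Ngfr (1454903_at) read 353 in RNA275, 2.76 times the higher labelled RNA. Gfra1 (1450440_at) read 180 in RNA276, 2.66 times the floor, with both labelled RNAs below it. What sets these RNAs apart was not tested.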

How the results depend on the processing

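One member probe set, of Gfra1, was at least 2-fold lower in truncated Egr3, and the number was also 1 with quantile normalization, loess and the higher floor. It was 0 with equal medians and with the 3-fold threshold, 2 with the lower floor and with the 1.5-fold threshold (Ngfr being added in both), and 3 without a floor (Ngfr and a dim Gfra1 probe set). The number at least 2-fold higher was 0 under each of these. Of the 10 measured member differences none changed sign under any alternative that measured them. A change of floor or threshold cannot reverse a sign, so only the other scalings could have done so. The Ntrk3 probe set 1433825_at was not measured under any of those scalings. The Ngfr difference moved most, from -3.05 without a floor to -0.33 with the higher floor, because its truncated-Egr3 signal lies below every floor used. Among the pathway lists, the receptors had 2 lower genes, in place of 1, by the median over probe sets, with the lower floor and at 1.5-fold, and 3 without a floor. Adaptors of Trk and Ret had 1 lower gene, in place of 0, with the lower floor, 2 without a floor, and 1 lower and 3 higher at 1.5-fold. Without a floor 1 ligand and 1 protease were higher, and at 1.5-fold 1 protease was lower, in place of 0. Signals near the floor limit Bdnf, Ntrk2, Ntrk3 and Ret. No paired analysis was possible because each label has 1 RNA.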
